A study of Mus musculus with 6 samples.

Results

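The chemokine ligand genes are the genes for the secreted or membrane-bound proteins that steer white blood cells by the receptors these cells carry. They were taken here as every gene of the array's annotation whose symbol is Ccl, Cxcl, Cx3cl or Xcl followed by a number, without Cxcl12. A gene needed a probe set that names it alone, and where it had several, the brightest one on average was used. This gave 33 genes of 19938 named ones: 19 of the CC family, 12 of the CXC family, 1 CX3C gene (Cx3cl1) and 1 XC gene (Xcl1). The rule used symbols and no comparison. The RefSeq gene table of GRCm38.p6 lists all 33, Cxcl11 as a transcribed pseudogene.

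Expression was measured in 6 mouse hearts at 6 months (postnatal day 180), each on 1 Affymetrix Mouse Gene 1.0 ST array. The groups were Id cKO (Tie2Cre+Id1F/-Id3-/-, 1 array) given mouse recombinant IGFBP3, an Id cKO control not given it (1 array), Id cKO (1 array), Id control (2 arrays) and WT (1 array). Id control 1 was Id1F/+Id3-/- and carried no Tie2Cre in its label, and Id control 2 was Tie2Cre+Id1-/-Id3+/-. Id1 and Id3 encode proteins that hold back helix-loop-helix transcription factors, and IGFBP3 is a secreted binding protein of insulin-like growth factors. Tie2Cre recombines in endothelial cells and also in blood cells, so that a floxed allele is lost in some of the cells that make or answer chemokines as well as in vessels. Alleles written with a minus are, by that notation, null in every cell, in the Id controls too. The IGFBP3-treated and untreated hearts are called the incubated pair here, after the word of the design text, which does not say what the incubation was. The sources do not give the number of animals behind a sample, so a p-value here measures how far samples spread, and that spread may be technical. The only spread available is that between the 2 Id control samples, which also differ in genotype.

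Chemokines fall into groups by the cells they draw. Cxcl1, Cxcl2, Cxcl3 and Cxcl5 attract neutrophils through the receptor Cxcr2, Ccl2, Ccl7 and Ccl12 attract monocytes through Ccr2, and the interferon-induced Cxcl9, Cxcl10 and Cxcl11 attract T cells through Cxcr3. Many of these inflammatory genes are silent or low in a resting heart and are induced within hours by NF-kB and interferon signalling in endothelial cells, fibroblasts and macrophages. Others, such as Ccl19 and Cxcl13, position lymphocytes in lymphoid organs, and Cx3cl1 and Cxcl16 are made as membrane proteins.

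Levels are log2 values, and differences are the first-named heart minus the second. As deposited, the median over all probe sets was 4.45 and 4.51 on the incubated pair and between 5.73 and 5.83 on the other 4 arrays, so the pair was set against the others after quantile normalization, which gives all arrays one distribution. The values of the rest of this paragraph are on that scale. Id3 was at 5.03 on the treated and 4.74 on the untreated array, 4.24 in Id cKO, 4.58 in Id control 1, 6.90 in Id control 2 and 6.81 in WT, low in the hearts labelled Id3-/- and as high with 1 Id3 allele as in WT. Id1 was at 6.50 on the treated and 6.51 on the untreated array, 6.07 in Id cKO, 7.68 in Id control 1, 6.00 in Id control 2 and 7.79 in WT, low where the label gives Id1F/- with Tie2Cre or Id1-/-. The Y-linked Eif2s3y lay between 7.01 and 7.85 in the incubated pair and WT, and between 2.48 and 2.81 in the other 3 hearts. The labels hold 3 date codes, 1 for the incubated pair, 1 for Id control 1 and 1 for the remaining 3 hearts, without saying what was done on them. The 7 heart muscle markers were measured on every array, and their summed level was 15.64 on the treated and 15.57 on the untreated array, and between 15.98 and 16.10 on the others. In a whole heart, fewer cells of a type and less RNA per cell cannot be told apart.

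In the 4 hearts outside the incubated pair, most chemokine genes ranged over less than 2-fold, though by the median more widely than all named genes. For 30 of the 33 genes the highest and the lowest of the 4 arrays were less than 2-fold apart, and the median range was 0.46, against 0.35 over all named genes. The 3 genes with a wider range were Ccl6, Ccl9 and Ccl3, where 3.85% of all named genes had one. Cxcl14, a chemokine of many tissues, was at 7.66 in Id cKO, 7.72 and 7.86 in Id control 1 and 2, and 7.78 in WT (deposited). Ccl5, a T cell attractant, was at 6.40 in Id cKO, 6.11 and 6.18 in the Id controls, and 6.27 in WT. Both genes differed little between these hearts. The neutrophil-attracting Cxcl1 was at 6.53 in Id cKO, 6.39 and 6.51 in the Id controls, and 6.70 in WT. Ccl11, the eosinophil attractant eotaxin, was at 5.78 in Id cKO, 6.10 and 5.71 in the Id controls, and 6.03 in WT. Ccl7 was at 5.76 in Id cKO, 6.00 and 5.93 in the Id controls, and 5.64 in WT. The Id cKO heart was thus at neither end for Cxcl1 and Ccl7, and between the 2 Id controls for Ccl11.

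**Figure D1:**
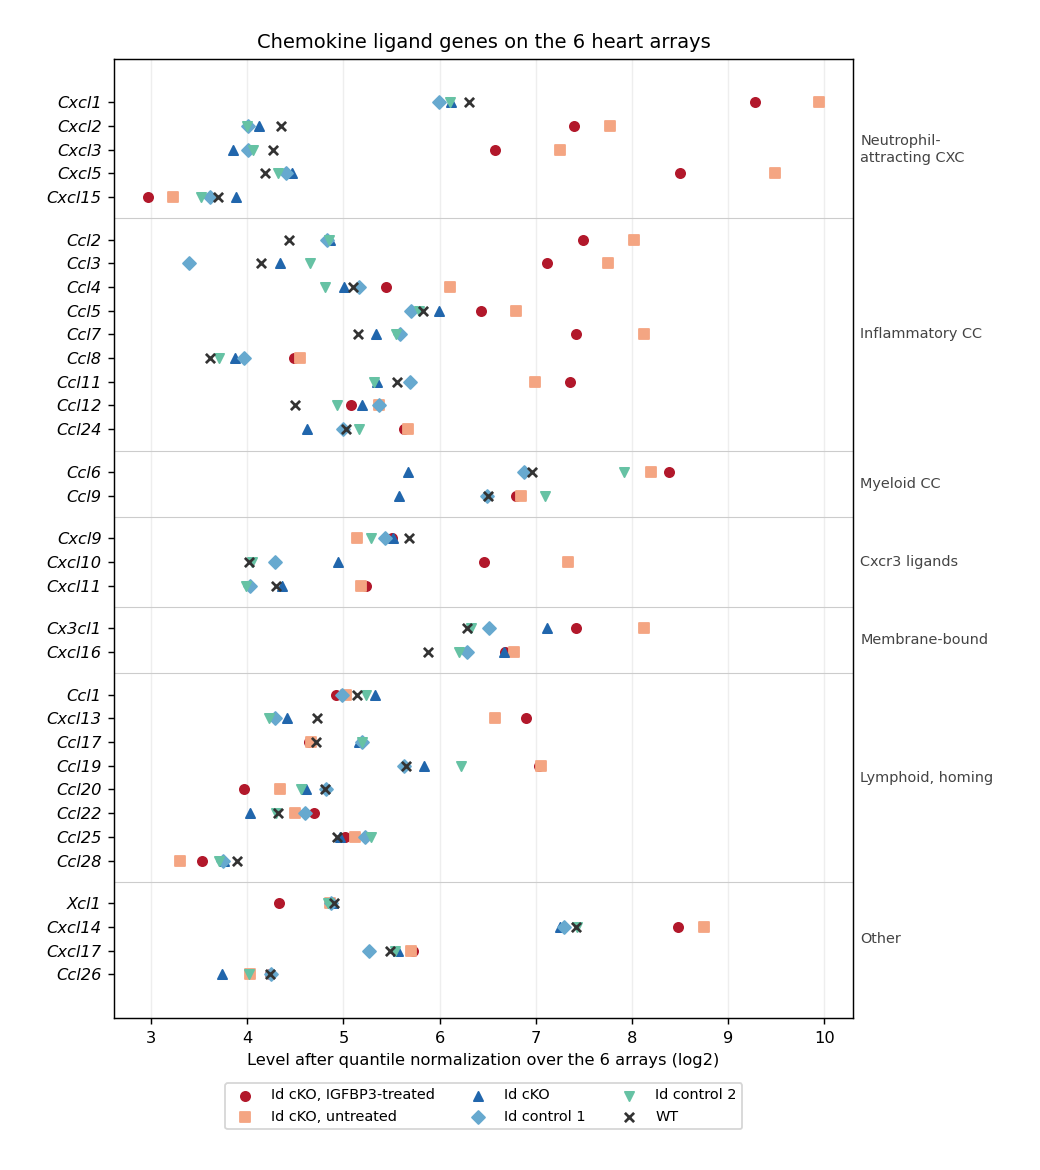
Level of each of the 33 chemokine ligand genes (rows, grouped by role) on each of the 6 arrays, in log2 after quantile normalization over the 6 arrays, 1 point per array. The treated (circles) and untreated (squares) incubated hearts lie far right of the other 4 for Cxcl1, Cxcl2, Cxcl3, Cxcl5, Ccl2, Ccl3 and Ccl7; rows are not to be compared with each other.

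The comparison of Id cKO with WT asks what loss of Id1 and Id3 does to the heart. These hearts also differed in sex pattern, with Eif2s3y at 2.95 in Id cKO and 7.98 in WT (deposited). With 1 array in each group, genotype and sex pattern cannot be told apart here. A pair of myeloid chemokines was lower in Id cKO, and the membrane-bound chemokines and Cxcl10 were higher, while every other gene but Ccl12 lay within 1.5-fold of WT. Ccl6, a mouse CC chemokine made by macrophages, was at 6.10 in Id cKO, 7.28 in Id control 1, 8.35 in Id control 2 and 7.32 in WT (deposited), 2.33-fold lower in Id cKO than in WT. It was the 1 member at least 2-fold apart, where 0.602% of all named genes were 2-fold lower and 1.36% higher. Ccl9, its neighbour on chromosome 11 and also a macrophage product, was at 6.01 in Id cKO, 6.90 in Id control 1, 7.53 in Id control 2 and 6.89 in WT, 1.84-fold lower than in WT. For both genes the Id cKO heart was the lowest of the 4 and Id control 2 the highest.

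Cx3cl1, or fractalkine, which endothelial cells display for monocytes and lymphocytes that carry Cx3cr1, was at 7.52 in Id cKO, 6.91 and 6.74 in Id control 1 and 2, and 6.69 in WT (deposited). Cxcl16, the membrane-bound ligand of Cxcr6, was at 7.09 in Id cKO, 6.69 and 6.61 in the Id controls, and 6.31 in WT. Cxcl10 was at 5.39 in Id cKO, 4.73 and 4.42 in the Id controls, and 4.52 in WT. The Id cKO heart was the highest of the 4 for each of these 3 genes, by 1.78-fold, 1.71-fold and 1.83-fold over WT in the order given. Ccl12, a mouse ligand of Ccr2, was at 5.62 in Id cKO, 5.78 and 5.31 in the Id controls, and 5.01 in WT. It was 1.53-fold higher in Id cKO than in WT but below Id control 1. At a limit of 1.5-fold, added after the values were seen, 4 members were higher (4.65% of all named genes were) and 2 lower (2.89%). Over the 33 members the median difference between Id cKO and WT was -0.02, and over all named genes -0.03.

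**Figure D2:**
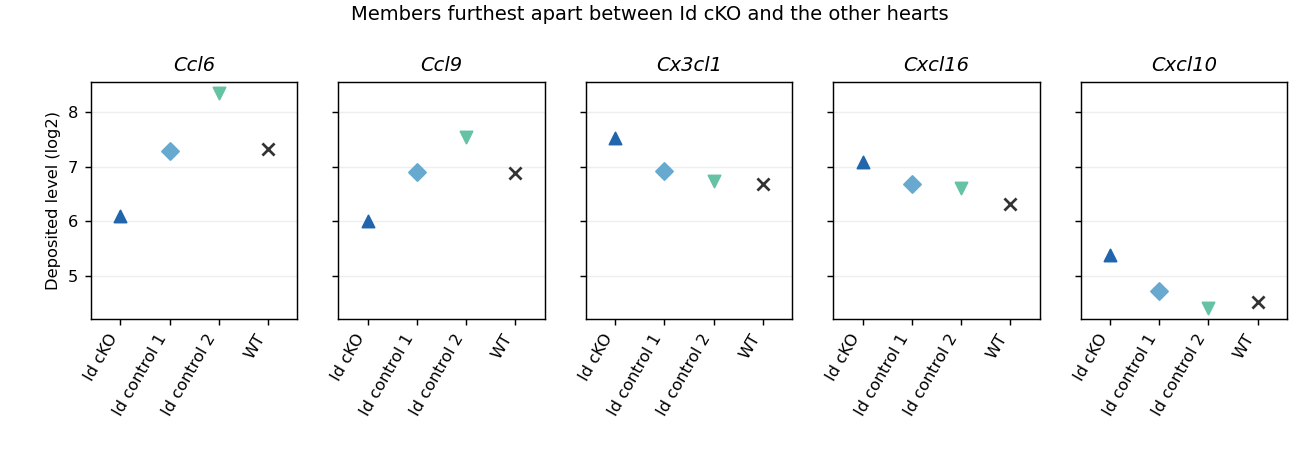
Deposited level (log2) of Ccl6, Ccl9, Cx3cl1, Cxcl16 and Cxcl10 in the Id cKO, Id control 1, Id control 2 and WT hearts, 1 array each. The Id cKO heart has the lowest value for Ccl6 (6.10) and Ccl9 (6.01) and the highest for the other 3 genes; panels are not to be compared in level.

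Set against the Id controls, hearts with the same Xist and Eif2s3y pattern, Id cKO was again low in Ccl6 and Ccl9 and high in Cx3cl1 and Cxcl10, but not in Cxcl16 by 1.5-fold (1.32-fold over Id control 1 and 1.40-fold over Id control 2). Ccl6 was 1.19 lower in Id cKO than in Id control 1 and 2.26 lower than in Id control 2 (log2). It was again the 1 member 2-fold apart from both, where 0.256% of all named genes were lower in this way and 0.416% higher. Ccl9 was 2-fold lower against Id control 2 alone (as were 0.943% of all named genes against that array). Ccl3, a chemokine of activated macrophages, was 2-fold higher against Id control 1 alone (0.938%). Ccl3 was at 4.80 in Id cKO, 3.77 and 5.04 in Id control 1 and 2, and 4.64 in WT, so that Id control 1 was the one apart. The 2 Id control arrays also differed 2-fold from each other in Ccl6 and Ccl3 (0.772% of all named genes did). They differed in tissue markers as well. All 4 atrial muscle genes were 2-fold lower in Id control 1 than in Id control 2 (median -4.28), as were 3 of 4 adipocyte genes, and all 6 fibroblast markers were lower, 2 of them 2-fold. The summed deposited level of the atrial genes was 14.04 in Id cKO, 11.40 and 14.70 in Id control 1 and 2, and 10.49 in WT. The atrial light chain gene Myl7 was at 5.38 in Id cKO, 5.31 and 12.27 in the Id controls, and 5.28 in WT, so that Id control 2 alone was high. The part of these tissues in the chemokine values was not tested. At the 1.5-fold limit Cx3cl1 and Cxcl10 were higher in Id cKO than in both Id controls (1.77% of all named genes were) and Ccl6 and Ccl9 lower (1.46%). The members' median difference between Id cKO and the Id control mean was 0.08, against 0.00 over all named genes.

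No chemokine gene passed a test in these comparisons. Limma, fitted to the 4 arrays over all named genes with Benjamini-Hochberg adjustment, has 1 residual degree of freedom, from the Id control arrays, and assumes that the lone arrays vary as those 2 do. The spread of those 2 arrays holds their differences in genotype, date code and atrial muscle markers. Against Id control, Cxcl10 was 0.82 ± 0.19 higher in Id cKO (limma SE), with an adjusted p of 0.332, and Cx3cl1 0.69 ± 0.16 higher, with 0.336. Ccl9 was 1.21 ± 0.29 lower in Id cKO (adjusted p = 0.342 in limma) and Ccl6 1.72 ± 0.44 lower (0.377). Of the 33 members 0 passed an adjusted p of 0.05, and 7 had an unadjusted p under 0.05, against 10.1% of all named genes. Against WT 0 members passed in limma too, 6 had an unadjusted p under 0.05 (9.98% of all named genes did), and the smallest adjusted p was 0.316, for Cxcl16. Ccl6 was 1.22 ± 0.51 lower in Id cKO than in WT (adjusted p = 0.529 in limma). In the whole table limma called 4 genes for Id cKO against WT (0.0201%), 2 for Id cKO against Id control (0.01%) and 1 for Id control against WT (0.00502%).

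Some markers moved with Ccl6 and Ccl9, and others did not. Of 10 macrophage markers, 9 were lower in Id cKO than in the Id control mean, and Cd163 and Lyve1, which mark resident heart macrophages, were 2-fold lower against each Id control and against WT. Against WT the 10 were split, with 6 lower and 4 higher (median -0.09), Adgre1 1.53-fold higher among them. Cd163 was at 5.84 in Id cKO, 7.28 and 7.62 in the Id controls, and 7.58 in WT (deposited). Lyve1, which lymphatic endothelium shares, was at 7.18 in Id cKO, 8.28 and 9.16 in the Id controls, and 8.32 in WT. The summed deposited level of the 10 macrophage markers was 10.59 in Id cKO, 11.06 and 11.24 in the Id controls, and 10.89 in WT. Of 6 fibroblast markers, 3 stood 2-fold above WT in the Id cKO heart (Col1a1, Col1a2 and Lum), while the other 3 lay below it, none by 1.5-fold. Relative to the Id control mean, 4 of these 6 were lower and 2 higher (median -0.31), none by 2-fold. The part of these cells in the chemokine differences was not tested. All 7 endothelial markers stood above WT in the Id cKO heart (median 0.56), with Cldn5 and Emcn 2-fold, and so did all 11 interferon response genes (median 0.50), with none 2-fold. All 11 were above the Id control mean too (median 0.30). Their summed deposited level was 10.58 in Id cKO, 10.50 and 9.90 in Id control 1 and 2, and 10.10 in WT, so that Id control 1 was close to Id cKO. The part of the endothelial and interferon lists in the higher Cx3cl1 and Cxcl10 was not tested either. Among 17 chemokine receptors 1 was 2-fold apart, Cxcr4, at 9.97 in Id cKO, 7.60 and 7.57 in the Id controls, and 7.72 in WT. Its ligand Cxcl12 is outside the genes described here.

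The comparison of Id control with WT asks what loss of other Id alleles does. Of the 33 members 0 were 2-fold apart in the same direction on both Id control arrays, where 0.12% of all named genes were. In Id control 2 alone, Ccl6 was 1.04 higher than in WT (log2), and it was the 1 member 2-fold apart (1.16% of all named genes were). In Id control 1 alone 0 members were (0.356%). The members' median was -0.12, against -0.01 over all named genes. Cxcl13, the B cell attractant, was the member furthest from WT in the Id control mean. It was at 4.72 and 4.61 in Id control 1 and 2 and at 5.23 in WT (deposited). Limma gave 0 of 33 members past an adjusted p of 0.05 and 3 with an unadjusted p under 0.05, against 7.03% of all named genes, and the smallest adjusted p among the members was 0.674. The lone WT heart differed from these hearts in sex pattern as well, and the 2 cannot be told apart here.

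The comparison within the incubated pair asks whether IGFBP3 alters the Id cKO heart. Most chemokine genes were lower in the treated heart, and none by 2-fold. Of the 33 genes 25 were lower as deposited, where 52.3% of all named genes were, and the members' median was -0.16, against -0.04 over all named genes. At least 2-fold apart were 0 members, where 0.893% of all named genes were. At the 1.5-fold limit added later, 9 members were lower (5.41% of all named genes were) and 0 higher (4.77%). With 1 array in each group these differences have no replicate check and no p-value. The 2 arrays also shared 1586 exactly equal deposited values, against 0 to 32 for any other pair of arrays. Equal values count as not lower in the shares given, and their cause was not tested.

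All 5 neutrophil-attracting genes were lower in the treated heart, where 52.3% of all named genes were, with a group median of -0.60. Cxcl5 was at 7.72 in the treated and 8.61 in the untreated heart (deposited), 1.85-fold lower. Cxcl3 was at 5.78 in the treated and 6.43 in the untreated heart, 1.57-fold lower. Cxcl1 was at 8.48 in the treated and 9.07 in the untreated heart, 1.51-fold lower. Cxcl2 was 1.27-fold lower. Cxcl15, known as a chemokine of the mouse lung, was 1.10-fold lower at low levels (2.35 in the treated and 2.50 in the untreated heart), so its direction says little. The 5 genes thus differed in size.

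Of the 9 inflammatory CC genes 8 were lower in the treated heart (median -0.36), where 52.3% of all named genes were. Ccl4, a chemokine of activated macrophages, was at 4.57 in the treated and 5.30 in the untreated heart (deposited), 1.66-fold lower. Ccl7 was at 6.63 in the treated and 7.29 in the untreated heart, 1.58-fold lower. Ccl3 was 1.52-fold lower, Ccl2 1.42-fold and Ccl5 1.29-fold. Ccl11 was the exception, at 6.57 in the treated and 6.18 in the untreated heart, 1.31-fold higher. Its neighbours Ccl7 and Ccl12 were both lower.

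Among the other genes, Cxcl10 was at 5.66 in the treated and 6.51 in the untreated heart (deposited), 1.81-fold lower, while Cxcl9, a ligand of the same receptor, was 1.25-fold higher. Cx3cl1 was at 6.63 in the treated and 7.29 in the untreated heart, 1.58-fold lower. Cxcl16, the other membrane-bound gene, was at 5.88 in the treated and 5.97 in the untreated heart. Xcl1, which attracts dendritic cells with Xcr1, was at 3.41 in the treated and 4.00 in the untreated heart, 1.51-fold lower. Both values lay under the median over all probe sets of their arrays (4.45 treated, 4.51 untreated). The genes that were low in the Id cKO heart hardly differed here. Ccl6 was at 7.60 in the treated and 7.37 in the untreated heart, and Ccl9 at 6.01 in the treated and 6.04 in the untreated heart. The 8 lymphoid and homing genes split 4 to 4, with Ccl19 at 6.25 in the treated and 6.24 in the untreated heart and Cxcl13 1.27-fold higher. Cxcl14 was at 7.70 in the treated and 7.92 in the untreated heart.

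**Figure D3:**
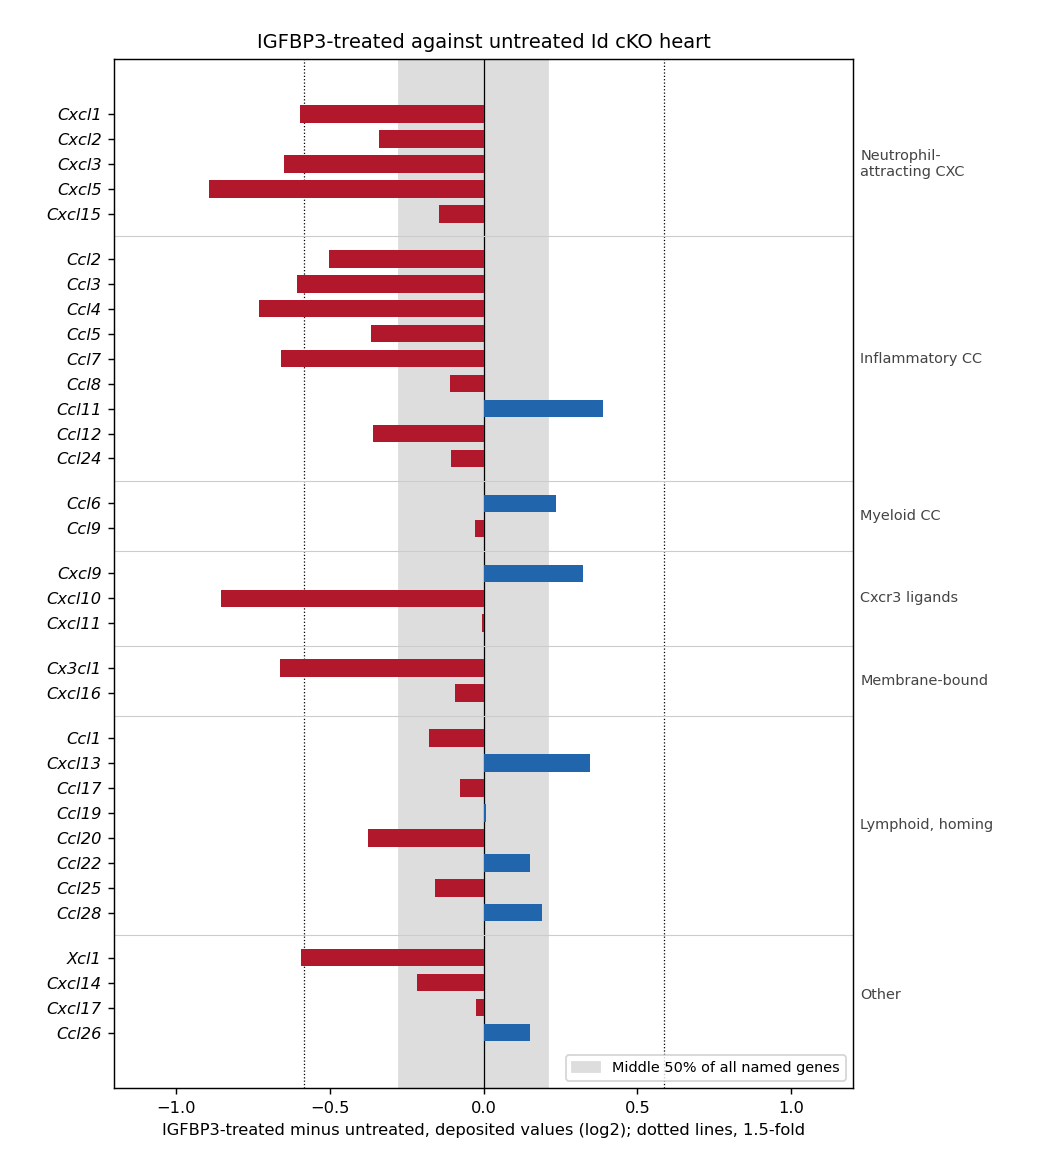
Difference between the IGFBP3-treated and the untreated Id cKO heart for each of the 33 chemokine ligand genes, in log2 of the deposited values, with lower values in red and higher ones in blue. The grey band runs from the lower to the upper quartile of all named genes and the dotted lines mark 1.5-fold; 25 bars point to lower values, 9 of them beyond the line, and no bar on the higher side reaches it.

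The size of this pattern moved with the scaling, of which cyclic loess was not planned for this comparison. The members' median, -0.16 as deposited, was -0.11 after quantile normalization, -0.09 after median centring and -0.06 after cyclic loess, against -0.04, 0.03 and -0.01 over all named genes on these 3 scales. After quantile normalization 24 members were lower in the treated heart (54.6% of all named genes were) and 8 by 1.5-fold (6.24%). After median centring these counts were 22 (47.5%) and 6 (3.85%), and after cyclic loess 20 (51.5%) and 6 (4.86%). Cxcl5, Cxcl10, Ccl4, Ccl7 and Cx3cl1 were at least 1.5-fold lower on all 4 scales. Xcl1 was 1.5-fold lower as deposited alone, with -0.52, -0.53 and -0.48 on the other 3 in the order given. Other lists differed in the same pair, in which 52.3% of all named genes were lower in the treated heart as deposited. Of 11 immediate early genes, the first genes that cells transcribe after a stimulus, 9 were lower in the treated heart, with Fosb (6.89 against 8.11 deposited), Egr1 (7.14 against 8.17) and Nr4a1 (8.70 against 9.74) 2-fold. Of 12 genes of the NF-kB response 10 were lower, none 2-fold (median -0.23), whereas 9 of 11 interferon response genes were higher (median 0.35). Of 10 macrophage markers 7 were lower, none 2-fold, with a summed deposited level of 10.22 in the treated and 10.53 in the untreated heart. Of 6 fibroblast markers 4 were higher, and Col1a1 was 2-fold lower. The platelet chemokine Ppbp was 2-fold higher (7.76 against 6.70). Among the receptors Ccr8 (2.24 against 3.67) and Xcr1 (2.72 against 3.92) were 2-fold lower. These values lay under the median over all probe sets of their arrays (4.45 treated, 4.51 untreated), and detection calls were not used. The part of these lists in the chemokine differences was not tested.

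The incubated pair and the Id cKO heart share the genotype, and against that heart many chemokine genes stood far higher on both incubated arrays. After quantile normalization 17 of the 33 genes were at least 2-fold higher in the untreated incubated heart than in Id cKO, where 3.32% of all named genes were, and 0 were 2-fold lower, where 2.83% were. The members' median difference was 1.01, against -0.01 over all named genes. With the treated heart in its place, 15 members were 2-fold higher (2.84% of all named genes) and the median was 0.66. These 2 comparisons share the Id cKO array and are given side by side. Incubation, date code, scale and sex pattern all differ between the pair and the Id cKO heart, with 1 array in each group, so they cannot be told apart and there is no test.

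The neutrophil-attracting genes differed most. Cxcl5 was at 8.51 in the treated and 9.49 in the untreated incubated heart, 4.46 in Id cKO, 4.41 and 4.31 in Id control 1 and 2, and 4.18 in WT (after quantile normalization, as are all levels in this comparison). It was 32.6-fold higher in the untreated heart and 16.5-fold higher in the treated heart than in Id cKO. In Id cKO, all the genes 2-fold higher here but Cxcl1, Cxcl14 and Cx3cl1 lie under that array's median over named genes (5.88). Detection calls were not used here, so the folds of genes under it are lower limits wherever the gene was not above background. Cxcl1 was at 9.28 in the treated and 9.95 in the untreated heart, 6.12 in Id cKO, 5.99 and 6.11 in the Id controls, and 6.30 in WT. Cxcl2 was at 7.40 in the treated and 7.77 in the untreated heart, 4.12 in Id cKO, 4.01 and 3.99 in the Id controls, and 4.35 in WT. For these genes the 4 other hearts lay close together, and both incubated hearts stood at least 4-fold above each of them. Cxcl3 was at 6.57 in the treated and 7.25 in the untreated heart, 3.86 in Id cKO, 4.00 and 4.06 in the Id controls, and 4.27 in WT. Cxcl15 ran the other way, at 2.97 in the treated and 3.23 in the untreated heart and at 3.88 in Id cKO.

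The monocyte attractants followed. Ccl2 was at 7.49 in the treated and 8.03 in the untreated heart, 4.86 in Id cKO, 4.83 and 4.85 in the Id controls, and 4.43 in WT, 8.95-fold higher in the untreated heart than in Id cKO. Ccl7 was at 7.42 in the treated and 8.12 in the untreated heart, 5.33 in Id cKO, 5.59 and 5.54 in the Id controls, and 5.15 in WT. Ccl3 was at 7.12 in the treated and 7.75 in the untreated heart, 4.34 in Id cKO, 3.40 and 4.65 in the Id controls, and 4.14 in WT. Both incubated hearts stood above all others in these 3 genes. Ccl12, which shares the receptor Ccr2 with Ccl2, did not follow them, at 5.08 in the treated and 5.37 in the untreated heart and 5.19 in Id cKO. Ccl8 and Ccl5 were 1.61-fold and 1.75-fold higher in the untreated heart than in Id cKO, and Ccl4 2.14-fold. The 2 eosinophil attractants were both higher, with Ccl11 at 7.35 in the treated and 6.99 in the untreated heart and 5.35 in Id cKO, and Ccl24 at 5.63 in the treated heart, 5.68 in the untreated heart and 4.62 in Id cKO.

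Genes of other roles were 2-fold higher too. Cxcl10 was at 6.46 in the treated and 7.34 in the untreated heart, 4.94 in Id cKO, 4.29 and 4.04 in the Id controls, and 4.02 in WT. Cxcl13 was at 6.90 in the treated and 6.58 in the untreated heart, 4.42 in Id cKO, 4.29 and 4.22 in the Id controls, and 4.72 in WT. Cxcl14 was at 8.48 in the treated and 8.75 in the untreated heart, 7.26 in Id cKO, 7.30 and 7.43 in the Id controls, and 7.42 in WT. Ccl19, a ligand of Ccr7, was at 7.03 in the treated and 7.05 in the untreated heart, 5.84 in Id cKO, 5.62 and 6.23 in the Id controls, and 5.65 in WT. Its 5 probe sets gave 1.16 to 1.32 for the untreated heart against Id cKO, and since Ccl19 has near-identical copies in the mouse genome, its signal may join several of them. The remaining lymphoid and homing genes lay between -0.50 and 0.47 in that comparison. Cxcl9 and Cxcl16 did not differ by 1.5-fold either.

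Ccl6 and Ccl9 were among the 17 genes too, but in these both incubated hearts were within 2-fold of Id control 2. Ccl6 was at 8.38 in the treated and 8.20 in the untreated heart, 5.67 in Id cKO, 6.88 and 7.91 in Id control 1 and 2, and 6.96 in WT. Ccl9 was at 6.79 in the treated and 6.85 in the untreated heart, 5.58 in Id cKO, 6.50 and 7.09 in the Id controls, and 6.50 in WT. The low Ccl6 and Ccl9 of the Id cKO heart were thus not seen in the incubated hearts of the same genotype. Cx3cl1 was at 7.42 in the treated and 8.12 in the untreated heart, 7.11 in Id cKO, 6.51 and 6.33 in the Id controls, and 6.29 in WT. The 3 hearts of Id cKO genotype were thus the highest of the 6, as they were for Cxcl10 and Cxcl16 among others. Cxcl16 was at 6.68 in the treated and 6.78 in the untreated heart, 6.67 in Id cKO, 6.28 and 6.21 in the Id controls, and 5.88 in WT. Against WT in place of Id cKO, 15 members were 2-fold higher in the untreated heart (4.92% of all named genes), against Id control 1 16 (4.49%) and against Id control 2 15 (3.95%). In 11 members both incubated arrays were at least 2-fold above each of the other 4 arrays, where 0.918% of all named genes were. They were Cxcl1, Cxcl2, Cxcl3, Cxcl5, Cxcl10, Cxcl13, Cxcl14, Ccl2, Ccl3, Ccl7 and Ccl11. At 4-fold the same count was 6, of 34 named genes in all (0.171%), and the 6 were Cxcl1, Cxcl2, Cxcl3, Cxcl5, Ccl2 and Ccl3.

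**Figure D4:**
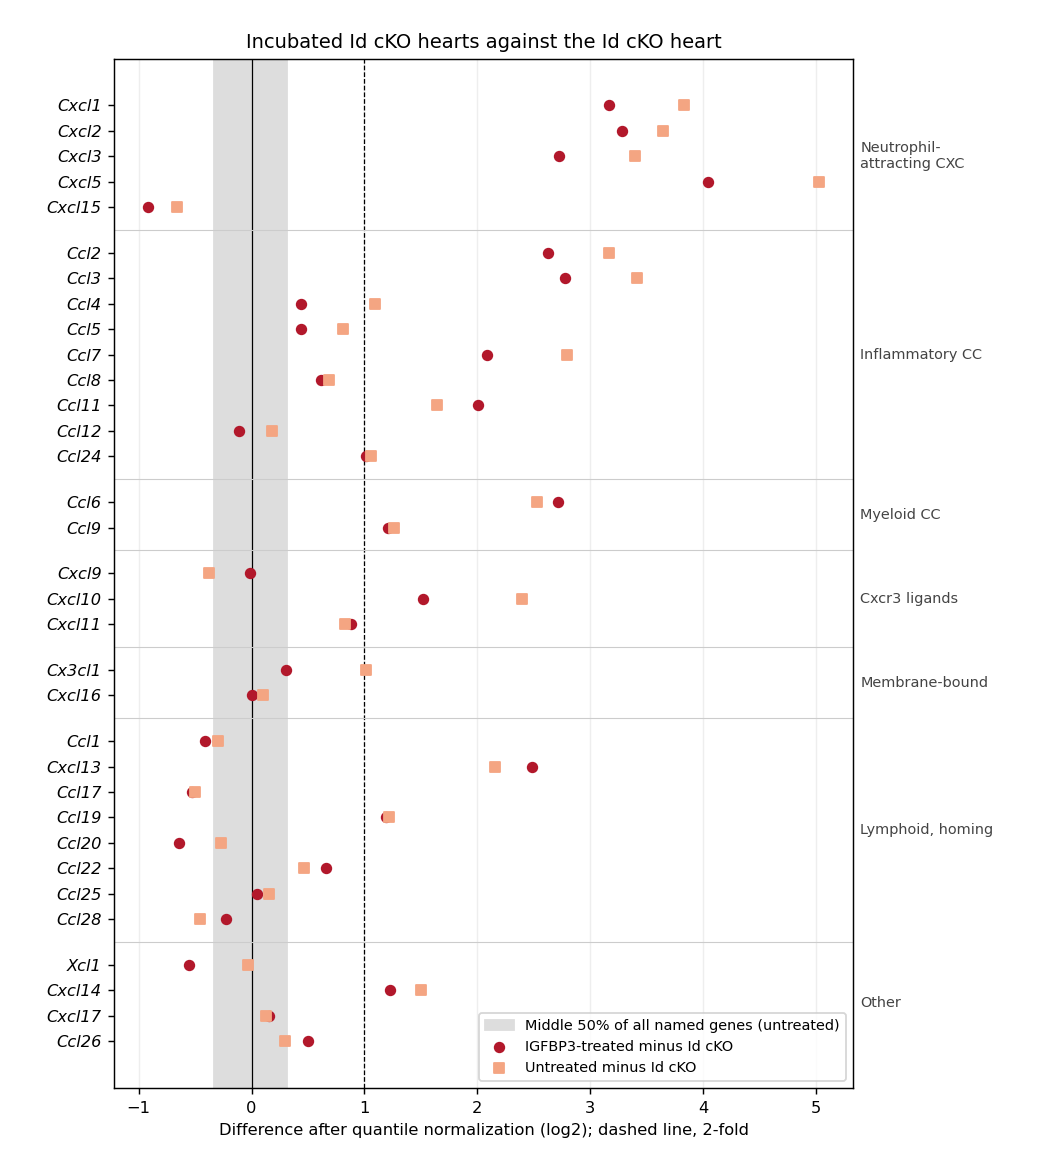
Difference of the IGFBP3-treated (circles) and the untreated (squares) incubated Id cKO heart from the Id cKO heart for each chemokine ligand gene, in log2 after quantile normalization. The grey band runs from the lower to the upper quartile of all named genes for the untreated heart and the dashed line marks 2-fold; 17 squares and 15 circles lie at or beyond the line, up to 5.03 for Cxcl5 in the untreated heart.

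Genes that lie next to each other did not all behave alike. In the RefSeq order, the CXC cluster of chromosome 5 runs Cxcl5, Ppbp, Pf4, Cxcl3, Cxcl15, Cxcl1, Cxcl2. Against Id cKO, the untreated heart was higher by 5.03, 3.39, 3.83 and 3.65 (log2) in Cxcl5, Cxcl3, Cxcl1 and Cxcl2, and by 2.67 and 1.19 in the platelet chemokines Ppbp and Pf4, which the symbol rule leaves out. Cxcl15, in the middle of the cluster, was at -0.66, but at low levels in both hearts (3.88 in Id cKO and 3.23 in the untreated heart). On chromosome 11, Ccl2, Ccl7 and Ccl11 at one end of a cluster were higher by 3.16, 2.79 and 1.64, while Ccl12, Ccl8 and Ccl1 at the other end were at 0.18, 0.68 and -0.30. In the other cluster of that chromosome the order is Ccl5, Ccl9, Ccl6, Ccl3, Ccl4, with differences of 0.81, 1.26, 2.53, 3.41 and 1.10.

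**Figure D5:**
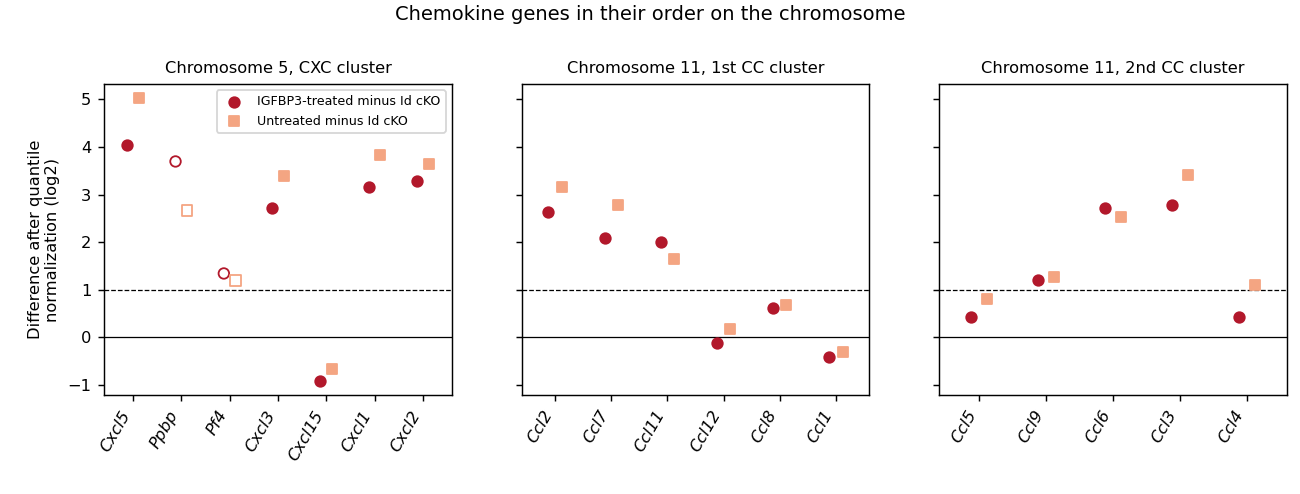
Difference of the IGFBP3-treated (circles) and untreated (squares) incubated hearts from the Id cKO heart (log2, after quantile normalization) for the genes of 3 chemokine clusters, placed in their order on the chromosome and not to distance. Open symbols are Ppbp and Pf4; Cxcl15 lies below 0 between Cxcl3 and Cxcl1, which lie above the dashed 2-fold line.

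The promoters of this chromosome 5 cluster are shown because its members differed so widely, together with that of Cxcl10, which lies elsewhere on chromosome 5. Cxcl5, Ppbp and Pf4 are not among them. Each is the 250 bases before the gene's start in RefSeq, GRCm38.p6, printed 5′ to 3′ on the gene's strand. Capitals mark matches, on either strand, to GGG, any 3 bases and TTCC, a form of the site bound by NF-kB. In Cxcl10 they also mark a match to GAAA, any 2 bases and GAAA, the core of the interferon-stimulated response element. The windows are chr5:90890995-90891244 (+) for Cxcl1, chr5:90903649-90903898 (+) for Cxcl2, chr5:90785851-90786100 (+) for Cxcl3, chr5:90794284-90794533 (+) for Cxcl15 and chr5:92348890-92349139 (-) for Cxcl10.
Cxcl1: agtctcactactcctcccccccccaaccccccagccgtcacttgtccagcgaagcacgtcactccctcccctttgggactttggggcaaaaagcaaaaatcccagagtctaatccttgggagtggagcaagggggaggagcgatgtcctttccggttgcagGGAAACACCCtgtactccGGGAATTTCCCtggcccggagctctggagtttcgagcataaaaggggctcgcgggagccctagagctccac
Cxcl2: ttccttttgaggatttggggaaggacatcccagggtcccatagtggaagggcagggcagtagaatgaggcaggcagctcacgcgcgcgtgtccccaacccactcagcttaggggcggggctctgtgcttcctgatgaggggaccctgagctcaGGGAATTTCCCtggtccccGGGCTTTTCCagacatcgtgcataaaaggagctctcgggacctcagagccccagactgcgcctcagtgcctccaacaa
Cxcl3: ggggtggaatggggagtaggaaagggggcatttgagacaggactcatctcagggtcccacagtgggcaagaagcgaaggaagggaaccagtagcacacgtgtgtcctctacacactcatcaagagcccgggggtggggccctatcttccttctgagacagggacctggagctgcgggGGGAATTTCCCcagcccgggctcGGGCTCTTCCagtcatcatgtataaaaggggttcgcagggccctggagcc
Cxcl15: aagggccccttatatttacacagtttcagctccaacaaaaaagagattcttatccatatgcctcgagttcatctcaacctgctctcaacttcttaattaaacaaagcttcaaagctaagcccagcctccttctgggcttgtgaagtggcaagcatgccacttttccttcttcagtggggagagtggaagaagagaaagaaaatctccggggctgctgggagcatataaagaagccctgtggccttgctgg
Cxcl10: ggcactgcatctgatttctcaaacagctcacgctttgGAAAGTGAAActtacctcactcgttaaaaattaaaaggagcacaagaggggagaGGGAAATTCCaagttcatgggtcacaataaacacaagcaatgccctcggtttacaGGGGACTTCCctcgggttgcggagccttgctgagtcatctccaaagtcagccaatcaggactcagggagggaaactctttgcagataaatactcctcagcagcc

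Of the cluster, 4 genes are thus compared, without Cxcl5, the most different one. In Cxcl1, Cxcl2 and Cxcl3 the NF-kB motif gave 3 matches each in 2 stretches, as the palindromic stretch matches on both strands and the matches overlap. Cxcl10 held 2 matches, and Cxcl15, which was low on every array and not higher in the incubated hearts, held 0. The RefSeq table had a window for 22 members. The motif was found in 7 of these genes (Cxcl1, Cxcl2, Cxcl3, Cxcl10, Ccl9, Ccl1 and Ccl20). By window it was in 7 of their 23, against 4.65% of all 32851 windows of the same length. Ccl1 and Ccl20 hold it and were at -0.30 and -0.27 in the untreated heart against Id cKO. Ccl3 and Cxcl13 do not hold it in their windows and were at 3.41 and 2.16. The interferon motif was found in 3 members (Ccl19, Cxcl10 and Cxcl14) and in 3 of the 23 windows, against 2.98% of all windows. A match describes these letters and is not evidence of binding.

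Several gene lists differed in the same direction as the chemokines on the incubated arrays. Of 11 immediate early genes 10 were 2-fold higher in the untreated heart than in Id cKO (median 2.27), with Fosb at 3.49 and Fos at 3.12. Of 12 NF-kB response genes 7 were (median 1.93). Il6, a cytokine of acute inflammation, was higher by 6.72, Ptgs2, the inducible cyclooxygenase, by 5.57 and the endothelial adhesion molecule gene Sele by 3.62. Of 11 interferon response genes 0 were (median 0.09). Of 17 chemokine receptors 0 were 2-fold apart, and of 5 atypical receptors 1 was, Ackr1 (1.42), which binds many inflammatory chemokines without signalling.

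Markers of some cells that chemokines draw were higher as well. Of 10 macrophage markers 5 were 2-fold higher in the untreated heart than in Id cKO (median 0.96), and their summed level after quantile normalization was 11.003 in the treated heart and 11.36 in the untreated one, 10.19 in Id cKO, 10.64 and 10.79 in the Id controls, and 10.53 in WT. Of 6 neutrophil markers 2 were 2-fold higher, S100a8 (1.86) and S100a9 (1.07), with summed levels of 7.73 in the treated and 7.75 in the untreated heart, 7.00 in Id cKO, 7.12 and 7.07 in the Id controls, and 7.36 in WT. All 6 were higher to some degree (median 0.49). In the treated heart 5 of 6 were above Id cKO (median 0.76), and S100a8, S100a9 and Retnlg 2-fold. Of 6 fibroblast markers all 6 were higher in the untreated heart than in Id cKO (median 0.92), with Pdgfra, Col1a2 and Dcn 2-fold, and of 4 lymphatic endothelial markers Pdpn and Lyve1 were 2-fold higher. All 7 heart muscle markers were lower (median -0.28), with Tnni3 2-fold. Of 3 monocyte, 5 T cell, 4 NK cell, 3 B cell, 5 dendritic cell and 4 mast cell markers 0 were 2-fold apart. Their medians were 0.50, 0.18, -0.11, -0.51, 0.06 and -0.73 in the order given. Among the monocyte markers Plac8 was 1.72-fold higher and Ccr2 1.52-fold lower, and 3 of the 4 mast cell markers were 1.5-fold lower. None of these markers was at 0 on any array, but without detection calls this does not show that each was expressed. In Id cKO the monocyte markers Plac8 (3.16) and Chil3 (2.83), for example, lay well under that array's median over named genes (5.88). The part of these cells, of the incubation and of the date code in the chemokine differences was not tested.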

How the data were processed

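RNA of 6 mouse hearts was measured on Affymetrix Mouse Gene 1.0 ST arrays from 300 ng of total RNA, per the labels' protocols. The deposited values are log2 expression levels for 35557 probe sets. The authors made them with Affymetrix Expression Console and RMA, per the submitters' processing notes, without stated versions. RMA corrects background, equalises distributions within the arrays it is run on and summarises probes, so arrays processed apart keep separate scales. Groups were taken from the labels.

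Of the probe sets 21789 carried 1 gene symbol in the platform annotation, 1621 several and 12147 none. Those with several or none named no gene, which leaves out 4 probe sets shared by Ccl21 genes and 3 shared by Ccl27 genes. The remaining ones gave 19938 genes.

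Comparisons within the 4 arrays and within the pair used deposited values, and comparisons across the 2 sets used quantile normalization over the 6 arrays (limma 3.58.1, R 4.3.3). Genes were counted at a 2-fold limit, the fold limit of the design text, with no filter on low values. Of the 33 members, 10 had a mean of at least 6 after quantile normalization. The linear model (lmFit, eBayes) was fitted over all named genes on the 4 arrays, with 1 residual degree of freedom, and was tested on simulated data. The spread of the Id control pair holds its difference in genotype, date code and atrial muscle markers.

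Every member could be named. Full values were given to members 2-fold apart or, where fewer were, to the 6 furthest apart, and to members with a mean of at least 6. From other lists the 3 genes furthest apart and those 2-fold apart could be named. Id1, Id3, Xist and Eif2s3y were named outside this rule, after their values were seen. The members and lists were chosen with earlier results of these data known. Alternatives were other scalings, floors on low values, the mean of a gene's probe sets, leaving out each Id control array and a variance trend in limma. Chosen after seeing the data were a 1.5-fold limit and other arrays in place of Id cKO or the untreated heart. Cyclic loess for the treated against the untreated heart was not planned either. The number of arrays limits the precision.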

Additional observations from a re-analysis of the deposited data

How the results depend on the processing

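Of 94 alternative settings of 13 results, 65 stayed within the spread of the Id control arrays (median SD 0.11 over the members) or within 1.5 times the count, and 29 moved. With the 1.5-fold limit, the members apart were 6 for Id cKO against WT, 4 for Id cKO against Id control and 9 for the treated against the untreated heart. Leaving out 1 Id control array gave 2 members for Id cKO against Id control each time (Ccl6 and Ccl9 without Id control replicate 1, Ccl6 and Ccl3 without replicate 2) and 0 to 1 for Id control against WT (Ccl6, without replicate 1). Where the higher group mean had to be at least 6, the members' median was -0.15 for Id cKO against WT, 0.075 for Id control against WT, -0.50 for the treated against the untreated heart and 2.28 for the untreated heart against Id cKO. Where the mean over the 6 arrays had to be at least 6, 10 members were left, the median was 0.18 for Id control against WT, -0.10 for Id cKO against Id control and 1.38 for the untreated heart against Id cKO, and 8 of these 10 were 2-fold higher in the last. That median was 0.66 with the treated heart in place of the untreated one and 0.83 with Id control 2 in place of Id cKO. The median thus turned sign with a floor for Id control against WT and for Id cKO against Id control. For Id cKO against WT (-0.02) it turned sign after quantile normalization and after median centring (0.04 with each).

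Limma called 0 members under every setting tried, with smallest adjusted p between 0.200 and 0.789, while its count over all genes moved. For Id cKO against WT it was 4 as reported, 2 with a floor of 6 on the mean, 11 after quantile normalization, 23 after median centring, 16 after cyclic loess and 17 with a variance trend. For Id control against WT it was 1 as reported, 0 with either floor, 3 after quantile normalization, 4 after median centring and 3 after cyclic loess. For Id cKO against Id control it was 2 as reported, 24 after median centring, 9 after cyclic loess and 9 with a variance trend. The cause was not tested. No paired analysis was possible because the labels give no replicate numbers and each group other than Id control is 1 array. Many members lay near the low end of the scale, where an array cannot show a decrease, and detection calls were not used here. All differences between lone arrays lack a replicate check.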

Other observations

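The genes of the Ccr7 ligand Ccl21 share probe sets, so their members cannot be read apart and stood outside the 33 genes. The 4 shared probe sets carried 7 symbols each and gave the same values on every array. They were at 8.94 in Id cKO, 8.00 in Id control 1, 8.17 in Id control 2 and 8.29 in WT, and at 7.68 in the treated and 7.99 in the untreated heart (deposited), so that the Id cKO heart was the highest of the 4. Of the 3 probe sets shared by Ccl27 genes, 2 gave the same values, 6.57 in Id cKO, 6.65 and 6.69 in the Id controls and 6.66 in WT, and the other was at 7.20 in Id cKO, 7.20 and 7.37 in the Id controls and 7.23 in WT.

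Ccl25, which draws lymphocytes to the gut and thymus through Ccr9, had 2 probe sets that disagreed in the incubated pair. The one used stood at 4.12 in the treated and 4.28 in the untreated heart (-0.16), and the other at 4.18 in the treated and 3.35 in the untreated heart (0.83).

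Ccrl2, an atypical receptor that holds chemerin at the cell surface, was at 6.94 in Id cKO, 7.75 and 8.93 in Id control 1 and 2, and 7.60 in WT (deposited). Like Ccl6 and Ccl9 it was lowest in Id cKO and highest in Id control 2. Ackr2, a scavenger of inflammatory CC chemokines, was at 7.42 in Id cKO, 6.33 and 6.73 in the Id controls, and 6.06 in WT, 2-fold higher in Id cKO than in WT.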
